A study of Mus musculus with 12 samples.

Results

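The genes described here are B4galnt2 and its relatives B4galnt1, B4galnt3 and B4galnt4, which are 4 of the 35241 genes named in the deposited table and hold 14 of its 113193 transcripts. B4galnt2 was taken up because its difference between the genotypes was already known from these mice, so that difference is given as a description without a test. The 3 relatives were taken by name. All 4 genes passed the filter on low values, a mean of at least 0.5 over the 12 mice, as did 15880 genes in all.

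RNA of full-thickness distal colon was measured in 12 untreated mice, all of them carrying floxed Spry2 alleles (Spry2-f/f). In 6 Spry2IEKO mice (Vil1::Cre;Spry2-f/f) Cre under the villin promoter deleted Spry2 from the intestinal epithelium, and 6 littermates without Cre (Spry2FF) served as controls. Muscle, vessels, nerves and immune cells of the homogenate kept Spry2 in both groups. Litters A and B each gave 3 mice of either genotype, and the labels give ages of 6 and of 8 weeks. Of the Spry2FF mice 3 were male and 3 female, whereas 1 Spry2IEKO mouse was male and 5 were female. Sample names also carry a different prefix in each litter, so litter and any handling that the prefix stands for cannot be told apart. Mice are called here by the numbers in their sample names. Values are abundances per transcript length and library (TPM) that the authors scaled once more between mice, here summed per gene and called normalized TPM. Their totals ran from 918815.8 to 1069158.1 per mouse. They carry no read depth, so no counting interval is given.

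Enzymes of this family add N-acetylgalactosamine in β1,4 linkage to the ends of sugar chains. B4galnt2 places it on a galactose that already bears sialic acid and thereby makes the Sda (Cad) antigen, a cap of glycoproteins and mucins of the gut lining. In mice B4galnt2 is also known for strain differences in where it is made, in intestinal epithelium or in vascular endothelium. B4galnt1 acts on glycolipids and makes the gangliosides GM2 and GD2. B4galnt3 and B4galnt4 transfer to N-acetylglucosamine and make LacdiNAc.

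B4galnt2 (ENSMUSG00000013418) lies on chromosome 11 from 95865943 to 95914891 on the minus strand of GRCm38 (GENCODE M21). Its only transcript in the table, B4galnt2-201, has 11 exons and 1722 bases, of which 1530 are coding, so the gene's value rests on 1 transcript that shares no exonic base with another. Since this gene had the largest difference of the 4 between genotypes, the 230 bases before its annotated transcript start are shown, from RefSeq on GRCm38.p6 (chr11:95914892-95915121, minus strand, 58.3% G or C). Promoters of 3 of the 4 members were in the RefSeq table. Capitals mark matches on either strand to GGAA, the core of ETS factor sites, to TTTAT, a core read by the gut homeobox factor Cdx2, and to GGGCGG, the GC box.
B4galnt2 promoter: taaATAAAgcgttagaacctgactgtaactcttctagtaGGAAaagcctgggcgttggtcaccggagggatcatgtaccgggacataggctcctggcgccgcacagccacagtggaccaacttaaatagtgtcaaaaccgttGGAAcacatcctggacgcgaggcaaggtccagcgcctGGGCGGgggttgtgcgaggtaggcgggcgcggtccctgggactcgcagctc
With the base before the start counted as -1, GGAA occurred 2 times, from -191 to -188 and from -88 to -85. TTTAT was read once, on the opposite strand, from -227 to -223, and GGGCGG once, from -51 to -46. No match overlapped another. GGAA was found in 91.9% of 32851 mouse promoter windows of the same 230 bases, TTTAT in 35.9% and GGGCGG in 29.8%. TGACTCA, the AP-1 site, was searched too, was found in 4.17% of windows and was not found in this one. In the same window of B4galnt3 there were 3 matches to GGGCGG and 1 to GGAA, and in that of B4galnt4 there was none to any of the 4 motifs. These are matches of letters only.

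B4galnt2 was lower in Spry2IEKO colon, at 0.411 of the Spry2FF level. Among Spry2FF mice of litter A it was 83.8 in mouse 2, 106 in mouse 3 and 84.2 in mouse 7, and in litter B it was 56.5 in mouse 9, 67.1 in mouse 10 and 74.3 in mouse 13 (normalized TPM). In Spry2IEKO mice of litter A it was 32.5 in mouse 4, 33.9 in mouse 5 and 29.6 in mouse 6, and in litter B it was 30.6 in mouse 8, 32.0 in mouse 11 and 35.2 in mouse 12. The highest Spry2IEKO value thus lay under the lowest Spry2FF value, as the plot of the family by mouse shows. The means were 32.3 ± 2.05 (SD, n = 6) and 78.7 ± 17.1 (SD, n = 6). On the log2 scale, after adding 0.5, the difference was -1.25 (SE 0.123 by limma, 95% interval -1.51 to -0.98). The SE and interval take no account of the choice of the gene on this contrast and are no test of it. Groups that did not overlap between genotypes were found for 0.403% of all genes tested, and 0.0315% (5 of 15880) passed an adjusted p of 0.05 in either direction, but B4galnt2 was chosen on this contrast and nothing is read from those shares.

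**Figure D1:**
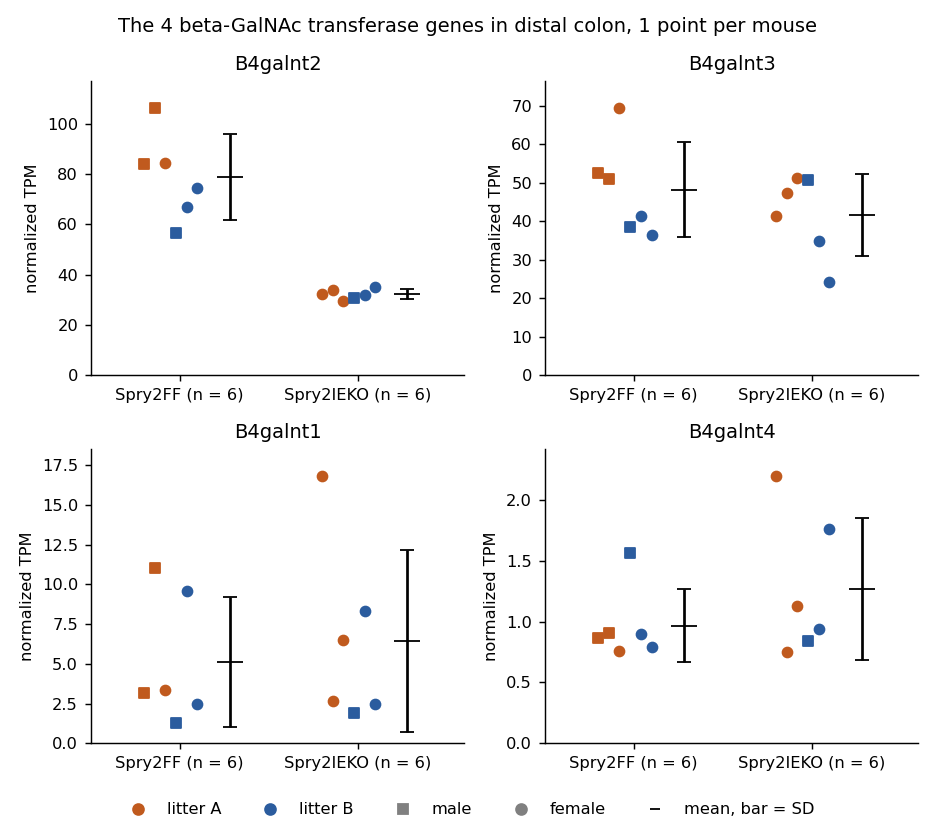
Normalized TPM (vertical axis, linear from 0) of the 4 genes in each Spry2FF and Spry2IEKO mouse, with 1 point per mouse, litter by color, sex by shape, and the mean with its SD beside each group. B4galnt2 lies between 29.6 and 35.2 in Spry2IEKO mice and between 56.5 and 106 in Spry2FF mice, while the groups of B4galnt3, B4galnt1 and B4galnt4 overlap.

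The lower level was found in each litter and among females alone. Since the groups did not overlap, any subset of these mice had to show this direction, so only the sizes are described. The log2 difference of B4galnt2, with 3 mice against 3, was -1.49 in litter A; the same comparison in litter B gave -0.998. It was -1.19 in 5 Spry2IEKO against 3 Spry2FF females. Spry2FF males averaged 82.2 ± 24.9 and Spry2FF females 75.2 ± 8.61 (SD, n = 3 each), and 2 of these males but 1 of these females came from litter A. With each mouse left out in turn, the difference stayed between -1.33 and -1.15.

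Spry2 itself, the deleted gene and an inhibitor of receptor tyrosine kinase signaling, was between 18.5 and 22.5 in Spry2IEKO mice and between 22.8 and 32.3 in Spry2FF mice. These ranges did not overlap, yet the Spry2 log2 difference of -0.45 (SE 0.0877) did not pass over all genes (adjusted p = 0.16 by limma). Cells outside the epithelium, which keep Spry2, were part of these samples. Their share of the Spry2 level was not tested, and the paper found Spry2 low beneath the epithelium.

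Spread of B4galnt2 was unequal between the groups. Its coefficient of variation was 6.36% over the 6 Spry2IEKO mice and 21.7% over the 6 Spry2FF mice. Among the 3575 genes within 2-fold of its mean level, 8.31% had a smaller SD of log2 values than B4galnt2 in Spry2IEKO mice, and 92.1% had a smaller SD in Spry2FF mice. In Spry2FF mice this width followed the litters, whose values did not overlap: 91.4 ± 12.9 in litter A and 66.0 ± 8.95 in litter B (SD, n = 3 each). Spry2IEKO litters overlapped, at 32.0 ± 2.18 and 32.6 ± 2.35. Of the 4 members, B4galnt2 and B4galnt3 had litters apart within Spry2FF, where 20.2% of all genes did, and no member had them apart within Spry2IEKO, where 19.2% of all genes did.

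The difference between litters B and A was tested with genotype in the model, a contrast that did not choose the gene. Over all 12 mice B4galnt2 was -0.22 on the log2 scale in litter B against litter A (SE 0.110, 95% interval -0.46 to 0.02, adjusted p = 0.264 by limma). The genotype difference of B4galnt2 was smaller by 0.49 in litter B (interaction, SE 0.174, 95% interval 0.11 to 0.88), which did not pass over all genes (adjusted p = 0.998 by limma). Over all genes 4.38% passed for litter and 0.0126% for the interaction, and 0 of the 4 members passed either. At an unadjusted p under 0.05, 1 of the 4 was below for litter, B4galnt3 (background 21.9%), and 1 of the 4 for the interaction, B4galnt2 (background 4.19%). No member had litters A and B apart over all mice, as 3.72% of genes did. The count for litter hung on single mice: 696 genes passed with all mice, 180 without Spry2IEKO mouse 5, and 17 without Spry2IEKO mice 4 and 5, which had the highest summed fat cell markers (561 and 1092, against 20.7 to 109 in the other 10 mice). Without those 2 mice the litter difference of B4galnt2 was -0.27 (adjusted p = 0.377 by limma).

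**Figure D2:**
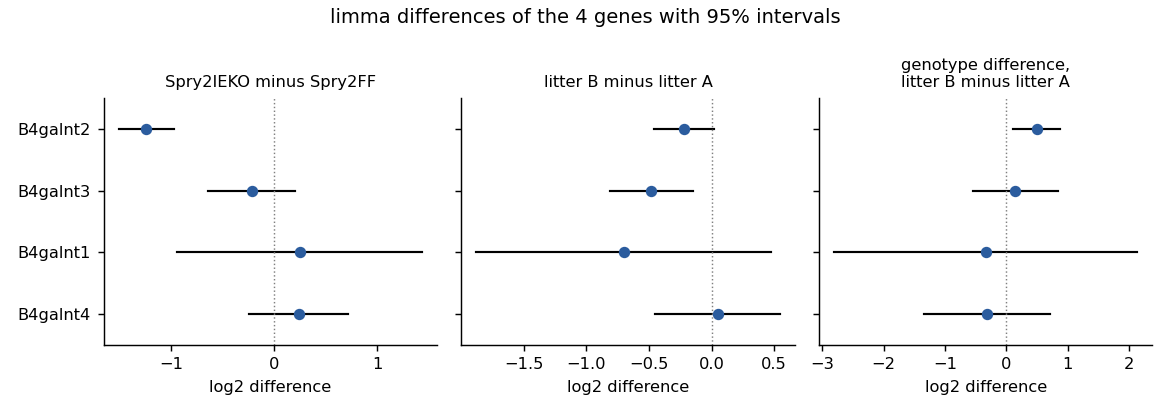
Log2 differences (horizontal axes) of the 4 genes by limma with 95% intervals, for Spry2IEKO minus Spry2FF, for litter B minus litter A, and for the genotype difference of litter B minus that of litter A. B4galnt2 sits at -1.25 between genotypes, and B4galnt3 at -0.48 between litters. The B4galnt2 interval between genotypes takes no account of the choice of the gene on that contrast.

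Because the tissue was a homogenate, fewer cells of a type and less RNA per cell cannot be told apart. Colon epithelium was checked by 11 markers such as Epcam, Cdh1 and Krt20, and all 11 were in the table and passed the filter. Their summed level ran from 8348 to 10770 in Spry2IEKO mice and from 9791 to 12240 in Spry2FF mice. Of these 11 markers 2 had a positive log2 difference (median -0.15, against 0.01 over all genes), none passed by limma, and 6 had an unadjusted p under 0.05, as 6.18% of all genes did, so the list lay on the same side as B4galnt2. Per 1000 of this sum B4galnt2 was 2.85 to 3.89 in Spry2IEKO and 4.62 to 10.9 in Spry2FF mice. The means of this ratio were 3.40 ± 0.451 and 7.47 ± 2.13 (SD, n = 6 each), and the mean epithelial sums were 9597 and 10730. This ratio is no test of epithelial content, since B4galnt2 was chosen for its genotype difference. Goblet cell markers moved the other way from B4galnt2, with 8 of 8 at a positive log2 difference (median 0.52, against 0.01 over all genes) and sums of 9611 to 18560 in Spry2IEKO and 8020 to 12160 in Spry2FF mice. None of the 8 passed over all genes by limma, and 7 had an unadjusted p under 0.05 (background 6.18%). Markers of absorptive colonocytes had 0 of 8 positive differences (median -0.27), with sums of 3083 to 7377 and 4317 to 6773. None of these 8 passed by limma, and 2 had an unadjusted p under 0.05 (background 6.18%). Skeletal muscle markers were present, with sums of 17.9 to 62.3 over the 12 mice although Myh4 was listed at 0 in all of them, and squamous epithelium markers had sums of 4.28 to 10.4 although Sprr3 was listed at 0. In all marker lists, here and below, genes were chosen after their values were seen. Their counts are therefore descriptions, and the backgrounds beside them are no test. The part of these marker shifts in the level of B4galnt2 was not tested.

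Endothelial markers, which mark the other known site of B4galnt2 in mice, were between 36.2 and 108 in Spry2IEKO and between 38.7 and 73.1 in Spry2FF mice when summed, so these groups overlapped. By litter, the sums were apart, at 62.0 to 108 in litter A and 36.2 to 47.7 in litter B. Of the 7 endothelial markers, 5 fell in litter B past the threshold, as 3.31% of all genes did, among them Pecam1 (-1.03, SE 0.182, adjusted p = 0.0152 by limma) and Cdh5 (-1.12, SE 0.129, adjusted p = 0.00497). Without Spry2IEKO mice 4 and 5, Cdh5 stayed past the threshold (adjusted p = 0.0445 by limma) and the other 4 did not, Pecam1 reaching an adjusted p of 0.0783. The log2 differences without those mice were -0.98 (Cdh5), -0.86 (Pecam1), -0.90 (Kdr), -0.96 (Tie1) and -0.61 (Esam). With all mice the last 3 were -0.94, -0.94 and -0.73. Esam, another of the 5, also lost its call when any of 6 single mice was left out (Spry2FF mice 2, 3, 9 and 13, Spry2IEKO mice 4 and 5). Endothelial sums thus parted by litter in both genotypes, while the litters of B4galnt2 were apart within Spry2FF and overlapped within Spry2IEKO. The part of endothelium in the B4galnt2 level was not tested.

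The order of the 4 genes by level was B4galnt2, B4galnt3, B4galnt1 and B4galnt4, with means over the 12 mice of 55.5, 44.9, 5.79 and 1.12 normalized TPM. B4galnt2 ranked 2584 and B4galnt3 3200 among 15880 genes, while B4galnt1 ranked 10299 and B4galnt4 14160. Neighbours in this order were compared within mice by exact permutation of paired log2 values, two-sided and adjusted over the 3 pairs. B4galnt2 and B4galnt3 did not differ beyond their spread (mean difference 0.20 ± 0.66, exact p = 0.314, higher in 7 of 12 mice). B4galnt3 was above B4galnt1 in 12 of 12 mice, by 3.16 ± 1.08 (exact permutation, adjusted p = 0.00147). B4galnt1 was above B4galnt4 in 11 of 12, by 1.66 ± 1.03 (exact permutation, adjusted p = 0.00147). The smallest p that 12 mice allow in this test is 0.000488.

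The first 2 genes of that order changed places with genotype. B4galnt2 exceeded B4galnt3 in 6 of 6 Spry2FF mice and in 1 of 6 Spry2IEKO mice, mouse 12. The ratio of B4galnt2 to B4galnt3 ran from 1.21 to 2.08 in Spry2FF and from 0.578 to 1.46 in Spry2IEKO mice. B4galnt2 held 53.4 to 65.1% of the summed family in Spry2FF mice and 33.5 to 55.4% in Spry2IEKO mice. The family sum was 133 ± 27.5 in Spry2FF and 81.6 ± 10.4 in Spry2IEKO mice (SD, n = 6 each), a difference that contains that of B4galnt2. The order, ratio and shares given above contain the B4galnt2 difference too and are no separate result.

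B4galnt3 (ENSMUSG00000041372, chromosome 6, 120203073 to 120294559, minus strand) is the LacdiNAc synthase with the higher level here. Its 6 Spry2FF values were 52.5, 51.0 and 69.4 in litter A (mice 2, 3 and 7) and 38.4, 41.5 and 36.5 in litter B (mice 9, 10 and 13). In Spry2IEKO mice they were 41.2, 47.4 and 51.3 in litter A (mice 4, 5 and 6) and 50.6, 34.9 and 24.1 in litter B (mice 8, 11 and 12). The genotypes overlapped over most of their range. B4galnt3 averaged 41.6 ± 10.6 in Spry2IEKO and 48.2 ± 12.3 in Spry2FF mice (SD, n = 6 each), with a log2 difference of -0.22 (SE 0.197, 95% interval -0.65 to 0.20, adjusted p = 0.894 by limma).

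By litter B4galnt3 was 52.2 ± 9.41 in A and 37.7 ± 8.67 in B (SD, n = 6 each), and Spry2IEKO mouse 8 was the only mouse of litter B above 42. The litter difference was -0.48 (SE 0.150, 95% interval -0.81 to -0.15, adjusted p = 0.0896 by limma). It passed the threshold without mouse 8, at -0.61 (adjusted p = 0.0188 by limma), and after rescaling each mouse to the same total, at -0.56 (adjusted p = 0.0493). Its genotype difference did not differ between litters past the threshold (interaction 0.15, SE 0.311, adjusted p = 0.998 by limma).

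The 3 transcripts of B4galnt3 shared most of their bases. B4galnt3-202, annotated as a processed transcript without coding sequence, begins inside the gene, and 97.2% of its 3610 bases are also in B4galnt3-201. It was nevertheless given 76.0 to 91.3% of the gene's value in every mouse. Its first 81 bases, in exon 1 at chr6:120242563-120242643 on the minus strand of GRCm38 (GENCODE M21), are in no other transcript of the gene. They are shown because they hold most of the bases that only the leading transcript has, the rest being 21 bases at its 3′ end.
B4galnt3-202, bases 1 to 81: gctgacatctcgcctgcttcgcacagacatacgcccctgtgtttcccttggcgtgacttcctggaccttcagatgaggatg
The coding transcripts B4galnt3-201 and B4galnt3-203 have no base that both others lack. All bases of B4galnt3-203 are in B4galnt3-201, so how the value was split between these coding forms is uncertain. With B4galnt3-202 they shared 95.4% (B4galnt3-201) and 94.3% (B4galnt3-203) of their bases. The split between coding forms and B4galnt3-202 thus had distinguishing bases, but rested on few of them.

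B4galnt3-203 averaged 4.94 in litter B and 9.79 in litter A (log2 difference -0.99, SE 0.249), which did not pass over all transcripts (adjusted p = 0.0721 by limma). Of the 14 member transcripts 7 passed the filter, and 0 of them passed for litter, as 1.31% of 45448 transcripts did, or, B4galnt2-201 set aside, for genotype, as 0.0022% did. Unadjusted, B4galnt3-202 and B4galnt3-203 had p under 0.05 for litter (background 18.3%) and none of the other 6 for genotype (background 4.95%). Its share of the gene was 16.6 to 21.9% in litter A and 8.67 to 16.5% in litter B, without overlap, as held for 2.39% of 39510 transcripts of genes with several. B4galnt3-202 had a litter difference of -0.38 (SE 0.138, adjusted p = 0.175) and a genotype difference of -0.23 (SE 0.171, adjusted p = 0.989 by limma). The full-length coding B4galnt3-201 was listed at 0 in 5 of 12 mice and reached 3.38 in Spry2IEKO mouse 6.

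**Figure D3:**
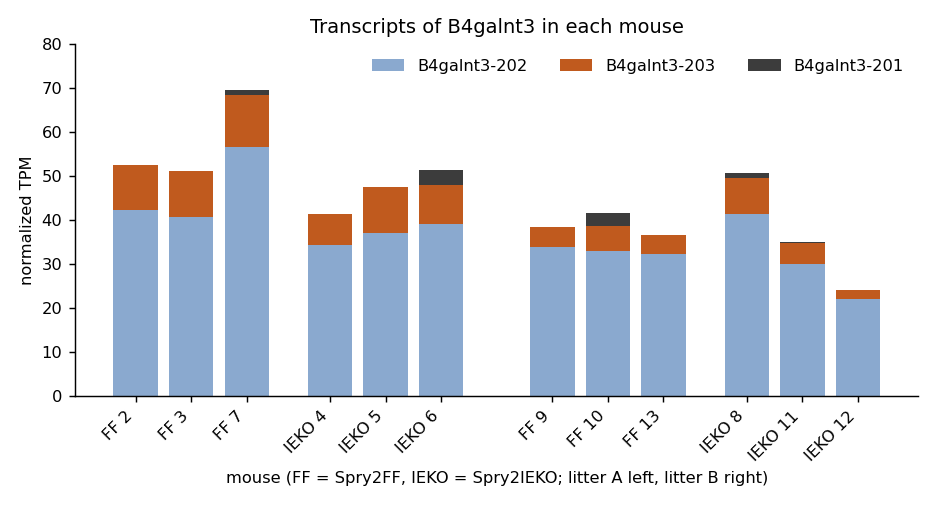
Normalized TPM (vertical axis, stacked from 0) given to the 3 transcripts of B4galnt3 in each mouse, with litter A on the left and litter B on the right. B4galnt3-202 takes 76.0 to 91.3% of each bar, and the B4galnt3-203 segment is 9.79 on average in litter A and 4.94 in litter B.

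B4galnt1 (ENSMUSG00000006731, chromosome 10, 127165225 to 127172330, plus strand) varied more between mice than between genotypes. Its Spry2FF values were 3.14, 11.1 and 3.35 in mice 2, 3 and 7 of litter A and 1.27, 9.56 and 2.50 in mice 9, 10 and 13 of litter B. Its Spry2IEKO values were 16.8, 2.66 and 6.49 in mice 4, 5 and 6 of litter A and 1.90, 8.32 and 2.45 in mice 8, 11 and 12 of litter B. Each of the 4 sets of 3 thus held 1 or 2 mice above 6 and the rest below 3.4. Means were 6.44 ± 5.70 and 5.15 ± 4.09 (SD, n = 6 each), with a log2 difference of 0.24 (SE 0.552, 95% interval -0.95 to 1.44, adjusted p = 0.960 by limma). That sign turned without Spry2IEKO mouse 4 (-0.09) and without Spry2FF mouse 9 (-0.03). Between litters B4galnt1 differed by -0.70 (SE 0.539, adjusted p = 0.479 by limma).

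Several sets of cell markers, those of lymphocytes among them, moved with B4galnt1 across the mice. The 5 mice with the highest B4galnt1, at 6.49 to 16.8, were also the 5 with the highest summed B cell markers, at 66.1 to 269, whereas the other 7 mice had B4galnt1 of 1.27 to 3.35 and B cell sums of 1.01 to 10.5. By mouse, the B cell sums were 269 in Spry2IEKO mouse 4, 116 in Spry2FF mouse 3, 108 in Spry2FF mouse 10, 110 in Spry2IEKO mouse 11 and 66.1 in Spry2IEKO mouse 6. All 4 B cell markers (Cd79a, Cd79b, Ms4a1 and Cd22) passed the filter, and none passed between genotypes or litters by limma, nor had any an unadjusted p under 0.05 between genotypes. The same 5 mice had the highest T cell sums, at 13.2 to 40.5 against 4.29 to 9.19. Of the 15 sets of cell markers, these were the only ones with all 5 of those mice on top. For tuft cells and for macrophages 4 of the 5 coincided, and for neurons and glia, a main site of complex gangliosides, 2 of the 5 coincided. The mice formed separate clusters in B cell markers, so no correlation is given. What part these cells had in the B4galnt1 level was not tested.

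**Figure D4:**
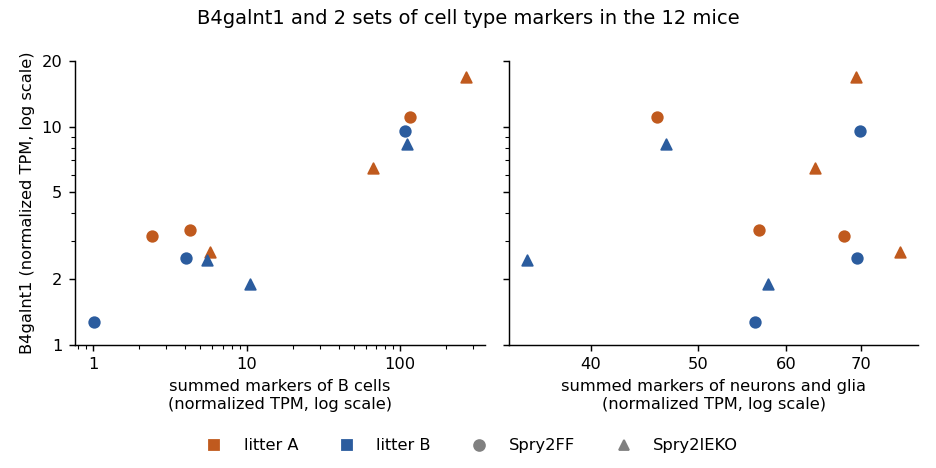
B4galnt1 (vertical axis, normalized TPM, log scale) against the summed markers of B cells and of neurons and glia (horizontal axes, normalized TPM, log scale) in the 12 mice, with litter by color and genotype by shape. The 5 mice with B4galnt1 of at least 6.49 have B cell sums of at least 66.1, and mice of both genotypes and both litters are among them.

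Of its 5 transcripts B4galnt1-201, the full coding form, held 73.5 to 92.7% of the gene's value. Its genotype difference was 0.25 (SE 0.551, adjusted p = 0.989 by limma). The retained-intron form B4galnt1-205 differed by 0.01 (SE 0.469), and the other 3 forms averaged under 0.5 and were not tested. The 3′ end of B4galnt1 overlaps Slc26a10 on the opposite strand, as the start of B4galnt3 overlaps D330020A13Rik and B4galnt2 the antisense gene Gm11534. The labels describe stranded libraries, and whether the pseudoalignment used strand is not given in the sources used here.

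B4galnt4 (ENSMUSG00000055629, chromosome 7, 141061104 to 141072400, plus strand), the second LacdiNAc synthase, was near the filter in all mice. It had a lowest value of 0.749, a median of 1.04 and a highest value of 2.20 in Spry2IEKO mice, and 0.762, 0.879 and 1.57 in Spry2FF mice. The groups overlapped, with a log2 difference of 0.24 (SE 0.223, 95% interval -0.25 to 0.72, adjusted p = 0.899 by limma) that the added 0.5 makes smaller. Between litters it was 0.05 (SE 0.228, adjusted p = 0.923), a sign that turned without Spry2FF mouse 9, Spry2IEKO mouse 5 or Spry2IEKO mouse 12 and after rescaling to the same total. The largest part of the B4galnt4 value went to the retained-intron form B4galnt4-202, at 0.546 of 1.27 in Spry2IEKO and 0.479 of 0.964 in Spry2FF mice. The full coding form B4galnt4-201 averaged 0.223 and 0.249 and was listed at 0 in Spry2IEKO mice 8 and 11.

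The routes around these enzymes were described by 6 lists, none of which had a member past the threshold between genotypes by limma. Of their 47 genes tested, 4 had an unadjusted p under 0.05, where 6.18% of all genes did. Of the 6 sialyltransferases listed as making acceptors for this family, 0 passed, and their median log2 difference was 0.01. St3gal6 was 224 in Spry2IEKO and 198 in Spry2FF mice (0.18, SE 0.0609, adjusted p = 0.692 by limma), and St3gal1 was 2.40 and 2.06 (0.23, SE 0.398). Of the list of competing terminal transferases, 0 of 7 tested passed. Abo, the A and B blood group transferase, was 18.4 and 13.04 (0.46, SE 0.135, adjusted p = 0.628), and St6gal1, which adds α2,6-linked sialic acid, was 42.9 and 29.4 (0.57, SE 0.291, adjusted p = 0.826).

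Of 13 ganglioside genes tested, 0 passed between genotypes, and the largest differences were those of St8sia5, a ganglioside sialyltransferase, at -0.52 (SE 0.375) and of B4galt5, a lactosylceramide synthase, at -0.31 (SE 0.197). Of the 6 LacdiNAc partners tested, 0 passed. B4galt1, which puts galactose where B4galnt3 and B4galnt4 put N-acetylgalactosamine, was 111 in Spry2IEKO and 140 in Spry2FF mice (-0.34, SE 0.0990, adjusted p = 0.611 by limma), and its relative B4galt2 was 3.58 and 2.86 (0.28, SE 0.192). The supply of the donor sugar UDP-GalNAc had 0 of 11 past the threshold, with Gnpnat1 at 0.22 and the transporter Slc35d2 at 0.17. Of the chondroitin transferases, 0 of 4 passed, with Chsy1 at 0.24 and Chpf at -0.22. The list medians lay between -0.07 and 0.16, against 0.01 over all genes.

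By litter, 4 genes of these lists fell in litter B past the threshold, where 3.31% of all genes fell and the median of all genes was -0.05. They were St6gal1 (-0.84, SE 0.182, adjusted p = 0.0297 by limma), Glb1, the lysosomal β-galactosidase of ganglioside breakdown (-0.30, SE 0.0667, adjusted p = 0.0316), and in the supply of UDP-GalNAc Gfpt1 (-0.26, SE 0.0594, adjusted p = 0.0360) and Gnpnat1 (-0.36, SE 0.0896, adjusted p = 0.0436). Leaving out 1 of the 12 mice ended that of St6gal1 in 7 cases, of Glb1 in 8, of Gfpt1 in 9 and of Gnpnat1 in 10, Spry2FF mice 3, 7, 9 and 13 being among them each time. Their adjusted p then reached at most 0.0973, and without Spry2IEKO mice 4 and 5 all 4 calls were lost (adjusted p = 0.0924 to 0.125 by limma). Without those mice the log2 differences were -0.84 (St6gal1), -0.34 (Glb1), -0.29 (Gfpt1) and -0.38 (Gnpnat1), no smaller than with all mice. No list gene rose past the threshold in litter B.

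Genes next to B4galnt2 on the chromosome did not pass the test between genotypes. The annotation gives 27 other genes within 250 kb, of which 14 were in the table and 10 were tested, and 0 of these passed between genotypes (lowest adjusted p = 0.753 by limma, with 3 at an unadjusted p under 0.05, namely Polr2k-ps, Phospho1 and Atp5g1, where 6.18% of all genes had one). The pseudogene Polr2k-ps was listed at 0 in all Spry2FF mice and averaged 1.69 ± 1.86 (SD, n = 6) in Spry2IEKO mice, from 0 to 3.74, so no fold is given. The other 9 differed by -0.44 to 0.21 on the log2 scale. Phospho1, a phosphatase gene of mineralization, was lowest at -0.44 (SE 0.193), with 7.09 in Spry2IEKO and 9.72 in Spry2FF mice, and Gngt2, a G protein subunit gene, highest at 0.21 (SE 0.209). The mitochondrial gene Atp5g1 differed by -0.18 (SE 0.0829), Ube2z by -0.12, Ttll6 by -0.05, Phb by -0.03, Zfp652 by -0.02, Snf8 by 0.04 and Abi3 by 0.12.

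**Figure D5:**
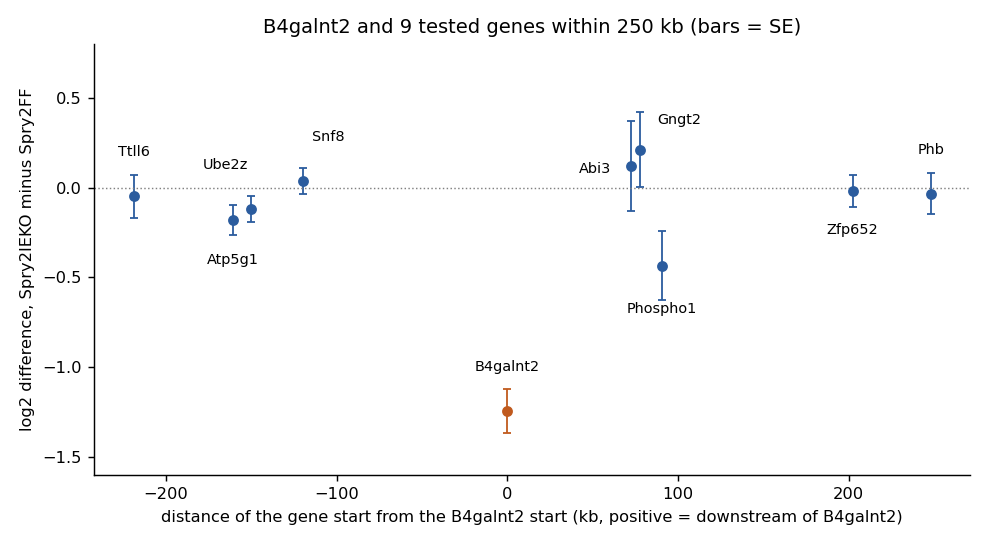
Log2 difference between Spry2IEKO and Spry2FF mice (vertical axis, bars are SE) against the distance of each gene's start from that of B4galnt2 (horizontal axis, kb). B4galnt2 is at -1.25, and the 9 tested neighbours above 0 in both groups lie between -0.44 and 0.21, while Polr2k-ps, listed at 0 in all Spry2FF mice, is not plotted.

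The genes whose log2 values followed B4galnt2 most closely over the 12 mice were Nfu1 (Pearson r = 0.877), Cdhr5 (0.874), Tspoap1 (0.868), Gm29397 (0.867) and Slc5a1 (0.859). These 12 points share the genotype difference, and each of the 5 genes was lower in Spry2IEKO mice without passing over all genes. Cdhr5, a protocadherin of the brush border, was 369 ± 28.2 in Spry2IEKO and 465 ± 29.6 in Spry2FF mice (SD, n = 6 each; log2 difference -0.34, adjusted p = 0.16 by limma). Slc5a1, a sodium and glucose cotransporter, was 72.4 ± 4.78 and 87.5 ± 4.47 (-0.27, adjusted p = 0.250). Nfu1, of iron and sulfur cluster assembly, was 47.0 ± 3.96 and 58.8 ± 2.33 (-0.32, adjusted p = 0.16). When the means of genotype and litter were taken out, other genes came first, namely Gm12788 (r = 0.937), Iqcc (0.923), 1700030K09Rik (0.920), Lsm2 (0.911) and Ubac1 (0.901), and their genotype differences ran from -0.05 to 0.94. None of the 3 relatives was among the 5 genes by either measure. Both sets are the top of a ranking of many genes over 12 mice, and the r that chance gives there was not worked out. Within litters A and B, B4galnt2 had SDs of 2.18 and 2.35 in Spry2IEKO and of 12.9 and 8.95 in Spry2FF mice. Deviations from these means thus came mostly from Spry2FF mice.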

How the data were processed

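RNA of full-thickness distal colon of 12 mice was sequenced, and the labels gave each mouse's genotype, litter and sex. The labels describe paired-end stranded libraries, and the study's methods single-ended reads. The authors pseudoaligned reads with kallisto, and the submitters' processing notes also name CASAVA, sleuth and mm10. The deposited signal is TPM per transcript, scaled once more between mice by the authors, and depth is not part of it. The table's p-values, q-values and model statistics of the authors were not used. Of 113974 entries 781 repeats were dropped, 28 genes whose names had become dates were renamed, and transcripts were summed per gene. Positions are from GENCODE M21 (GRCm38), matched without version numbers.

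The two-sided test was limma 3.58.1 (R 4.3.3; lmFit, eBayes with trend, Benjamini-Hochberg) on log2(signal + 0.5), which understates changes of low genes, for a mean of 0.5 or more and an adjusted p threshold of 0.05. The p-values measure the spread between these mice. Litter was tested with genotype as covariate. The tests had been planned for TPM and were kept for the scaled signal. They were tested on simulated data. Figures were drawn with matplotlib 3.10.9, and values were summarised in Python 3.11.15 with SciPy 1.17.1, pandas 2.3.3 and NumPy 2.4.6. Members and lists were chosen with earlier results of these data known. Named were the 4 genes and their transcripts, Spry2, list genes past a threshold or with the 2 largest genotype differences of their list, tested genes within 250 kb of B4galnt2, and the 5 genes most like it by each measure; marker genes were chosen after their values were seen. The alternatives tried were pseudocounts of 0.1 and 1, other filters, rescaled totals, quantile normalization, litter or sex as covariates, subsets, and leaving out each mouse. Some items are left out of the marker lists and not reported here.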

Additional observations from a re-analysis of the deposited data

Results flagged for a closer look

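Among 36 groups of 6 mice examined (a gene or transcript in a genotype), 9 held a mouse set apart from the other 5 by more than Dixon's 95% limit for its gap, which chance gives in about 1 group in 20 where values follow a normal distribution. That rate does not hold for 4 of the 9, where the other 5 mice were listed at 0 and any value above 0 is set apart, and most of the others are transcripts near 0. For whole genes this was B4galnt4 in Spry2FF mouse 9, at 1.57 against 0.762 to 0.910 in the other 5. For transcripts of B4galnt3 it was B4galnt3-201 in Spry2IEKO mouse 6, at 3.38 against at most 0.980, and in Spry2FF mouse 10, at 2.79 against at most 1.02. For B4galnt1 it was B4galnt1-202 in Spry2IEKO mouse 4, at 1.16, and B4galnt1-203 in Spry2IEKO mouse 6, at 0.399, where the other 5 were listed at 0. For B4galnt4 it was B4galnt4-201 in Spry2FF mouse 3, at 0.397 against 0.193 to 0.241, B4galnt4-203 in Spry2IEKO mouse 4, at 0.493 against at most 0.168, B4galnt4-204 in the same mouse, at 0.995, and B4galnt4-205 in Spry2IEKO mouse 12, at 1.35, with the other 5 listed at 0 for the last 2. No B4galnt2 value was set apart in this way. These transcripts have between 0 and 28.04% of their bases to themselves within their gene.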

How the results depend on the processing

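No paired analysis was possible because the genotypes share no replicate numbers. With litter as a covariate 6 genes and 1 transcript passed between genotypes, and B4galnt2 stayed at -1.25. B4galnt2 kept its direction between genotypes under every alternative run, at -1.49 in litter A alone and -0.998 in litter B alone and from -1.33 to -1.15 with 1 mouse left out. Subsets of the mice could not turn this sign, since the groups did not overlap. Of all genes, 5 passed between genotypes. The count was 3 with a mean of at least 0.1, 2 among females, in litter A and after quantile normalization, and 1 in litter B, with no filter, with sex as covariate and without Spry2IEKO mice 4 and 5 (added after the data were seen). It was 1 to 11 with 1 mouse left out, the highest without Spry2IEKO mouse 8. Of transcripts, 1 passed, and 0 to 4 with 1 mouse left out. For litter 696 genes passed (171 higher, 525 lower). The count was 17 without Spry2IEKO mice 4 and 5, 1456 after rescaling totals (105 higher, 1351 lower; added after the data were seen), 477 after quantile normalization (209 higher, 268 lower), and 180 to 957 with 1 mouse left out. Rescaling moved the median litter difference of all genes from -0.05 to -0.12. For the interaction 2 genes passed, and 2 to 5 with 1 mouse left out. Signs that turned belonged to differences that never passed: B4galnt1 between genotypes (-0.094 to 0.51 with 1 mouse left out), B4galnt4 between litters (-0.062 to 0.20, and -0.0050 after rescaling), and the interactions of B4galnt1 (-0.94 to 0.37, and 0.10 with sex as covariate) and B4galnt3 (-0.12 to 0.41). The order of the 4 genes kept its calls in all alternatives. For B4galnt3 the litter difference passed the threshold without Spry2IEKO mouse 8 and after rescaling. The causes were not tested. Depth could not be weighed, since the values carry none.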
